A study of Mus musculus with 2 samples.

Results

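Transcripts of mature adipocytes were followed in 2 single-cell libraries made from the stromal vascular cells (SVC) of epididymal white adipose tissue (eWAT), a preparation from which the floating, fat-filled adipocytes are normally removed. The set holds 10 genes given by symbol, Adipoq, Retn, Lep, Rbp4, Cfd, Cidec, Plin1, Car3, Scd1 and Thrsp, of 27998 genes listed in the count tables, and all 10 were found. The mice were C57BL/6 (male C57BL/6J in the study's text), fed either a low-fat diet (LFD) or a high-fat diet (HFD) for 24 wk from 6 wk of age, and each diet gave 1 library of the 10x Chromium droplet assay, in which every captured transcript is counted as a unique molecular identifier (UMI) under the barcode of its droplet. Neither library carries a genetic change or a drug, and the number of mice behind each is not given in the sources used here. The assignment to diet follows each sample's own treatment label and title, because a protocol note shared by both samples names low-fat feeding throughout. With 1 library per diet no test between diets could be made, and every interval below is an exact 95% interval that covers counting error only.

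White adipocytes store triglyceride in a single large lipid droplet and act as endocrine cells. Adipoq (adiponectin), Retn (resistin), Lep (leptin) and Rbp4 (retinol-binding protein) encode circulating hormones or carriers, and Cfd encodes adipsin, a serine protease of the alternative complement pathway. Plin1 (perilipin) coats the lipid droplet and restrains lipolysis, and Cidec promotes the fusion of droplets. Scd1 introduces the double bond of monounsaturated fatty acids, Thrsp (Spot 14) is a nuclear protein tied to lipogenesis, and Car3 is a cytosolic carbonic anhydrase that is abundant in fat. Because stromal and other cells can also make Cfd, Rbp4 and Scd1, the other 7 genes were summed as the restricted set.

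The genes lie apart in the genome (GRCm38, GENCODE M21). The secreted factors are Adipoq at chr16:23146536-23158028, Retn at chr8:3655770-3660110, Lep at chr6:29060220-29073877, Rbp4 at chr19:38116629-38125281 and Cfd at chr10:79890853-79892655. The droplet proteins are Cidec at chr6:113424634-113435760 and Plin1 at chr7:79720218-79732903. The remaining genes are Car3 at chr3:14863512-14872523, Scd1 at chr19:44394455-44407879 and Thrsp at chr7:97412938-97417730. All are protein coding, and the counts cover whole genes.

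Promoters of 300 bases, from 250 bases before to 50 bases after the start, were taken from RefSeq (GRCm38.p6), which held them for 8 of the 10 genes, 10 promoters in all. Car3 and Scd1 had no entry. The 8-base sequence TTGCNNAA, one spelling of the site recognized by C/EBP factors, was searched on both strands together with CCAAT and TATAAA. TTGCNNAA stood in 4 of the 10 promoters (Cidec, Lep, Plin1 and Rbp4) against 10.8% of all 32851 promoters, CCAAT in 3 (Adipoq, Rbp4 and Thrsp) against 37.4%, and TATAAA in 1 (Rbp4) against 13.6%. The promoters of Lep and Adipoq are shown because, of these hormones, Adipoq was lower in HFD and Lep was not detectably so. Capitals mark matches to TTGCNNAA in Lep, at position -55 from the start, and to CCAAT in Adipoq, which held 3. A match describes the letters only.
Lep, chr6:29059971-29060270, + strand: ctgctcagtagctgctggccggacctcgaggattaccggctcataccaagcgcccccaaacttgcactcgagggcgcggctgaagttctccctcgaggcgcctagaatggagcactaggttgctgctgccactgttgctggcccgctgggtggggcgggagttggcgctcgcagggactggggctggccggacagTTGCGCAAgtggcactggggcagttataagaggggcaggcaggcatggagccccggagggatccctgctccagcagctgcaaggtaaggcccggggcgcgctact
Adipoq, chr16:23146286-23146585, + strand: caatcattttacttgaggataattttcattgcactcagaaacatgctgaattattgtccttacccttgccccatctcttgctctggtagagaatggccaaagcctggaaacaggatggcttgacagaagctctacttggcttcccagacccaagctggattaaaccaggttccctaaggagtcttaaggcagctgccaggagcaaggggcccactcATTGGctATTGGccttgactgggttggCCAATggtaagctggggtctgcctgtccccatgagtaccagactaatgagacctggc

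All barcodes of the deposited tables were kept, 1113 for LFD with 7356278 UMIs and 1144 for HFD with 8412325 UMIs. The median depth was 6197 and 6486 UMIs, and 0 barcodes were shared between the libraries. Cells were classed by gates on genes outside the set. A fibroblast barcode held at least 10 UMIs of Dcn, an endothelial barcode at least 3 of Cdh5 and Cldn5, a macrophage barcode at least 10 of C1qa, C1qb and C1qc, and a T cell barcode at least 2 of Cd3d, Cd3e and Cd3g. This gave 377 fibroblast, 149 endothelial, 229 macrophage and 72 T cell barcodes in LFD, and 293, 207, 320 and 21 in HFD. The 15 LFD and 27 HFD barcodes that passed several gates were kept apart, and 271 and 276 passed none. All 18 further marker genes listed in the tables were highest in their own class in both libraries. The LFD T cell barcodes also held macrophage markers, with Lyz2 at 4306 CPM (UMIs of a gene per 1000000 UMIs of the class) against 7841 CPM in macrophage barcodes. The fibroblast class also held mesothelial markers, with Krt19 at 154 CPM in LFD and 72.0 CPM in HFD, and Wt1 at 191 and 159 CPM. A mesothelial gate (at least 3 UMIs of Msln and Upk3b) found 0 ungated barcodes. The part of mesothelial cells in the fibroblast class was not tested.

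The adipocyte transcripts were a small fraction of each library and were held unevenly by its barcodes. The 10 genes had 9194 UMIs in LFD and 2381 in HFD, of which the restricted set made up 4971 and 1588. In LFD, 332 of 1113 barcodes held at least 1 restricted UMI, yet 26 barcodes were enough to hold at least 50% of them. In HFD, 322 of 1144 barcodes held one, and 36 barcodes were enough. Endothelial barcodes held 2159 of the restricted UMIs in LFD and 885 in HFD. A barcode was called adipocyte-rich when it held at least 5 UMIs of the restricted set and these made up at least 1% of its UMIs. Since the restricted genes chose these barcodes, their values there are a description.

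Adipocyte-rich barcodes numbered 46 in LFD, 4.13% of barcodes (3.04 to 5.47%), and 14 in HFD, 1.22% (0.671 to 2.04%). They held 2508 of the 4971 restricted UMIs in LFD (50.5%) while carrying 1.30% of all UMIs. In HFD they held 360 of 1588 (22.7%) with 0.212% of all UMIs. Among barcodes within the study's limits of 200 to 2500 genes and under 5% mitochondrial UMIs, they held 69.9% and 47.2%. The barcode nearest the limit from above had 1.02% of its UMIs in the restricted set in LFD and 1.05% in HFD, and those nearest from below had 0.947% and 0.867%.

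These barcodes were shallow and low in Malat1, an abundant nuclear RNA. Their median depth was 1126.5 UMIs in LFD and 777 UMIs in HFD. Malat1 had 7701 CPM in the rich barcodes and 20211 CPM in the others of LFD, and 6884 and 16562 CPM in HFD. In the rich barcodes that passed no gate it had 4873 CPM in LFD and 3214 CPM in HFD. It stood under 10 UMIs in 39 of the 46 LFD barcodes and was 0 in 30 of them, while 14.7% of all LFD barcodes were under 10. In HFD it stood under 10 in 11 of 14 barcodes and was 0 in 6, against 8.48% of all barcodes. A limit of 10 UMIs is met more easily by a shallow barcode. At a given number of restricted UMIs, so is the 1% rule. It left out deeper barcodes such as 1 in LFD with 178 restricted UMIs among 18800 and 291 UMIs of Malat1. The depth and Malat1 counts of the rich barcodes are thus partly set by the rule that chose them. Of the 46 LFD barcodes 42 passed no gate and 4 passed the endothelial gate, and in HFD these numbers were 13 and 1. In all 46 LFD barcodes the 5 endothelial markers together had 167 UMIs, 29.9% of their CPM in endothelial barcodes, the 5 fibroblast markers had 18 (2.63%), the 5 macrophage markers 1 (0.0894%) and the 3 T cell markers 3 (4.77%). In the 42 without a gate these numbers were 6, 17, 1 and 0 UMIs, values that the lack of a gate helps to set. In the 14 HFD barcodes the 18 markers had 2 UMIs, 1 of a fibroblast and 1 of an endothelial marker.

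**Figure D1:**
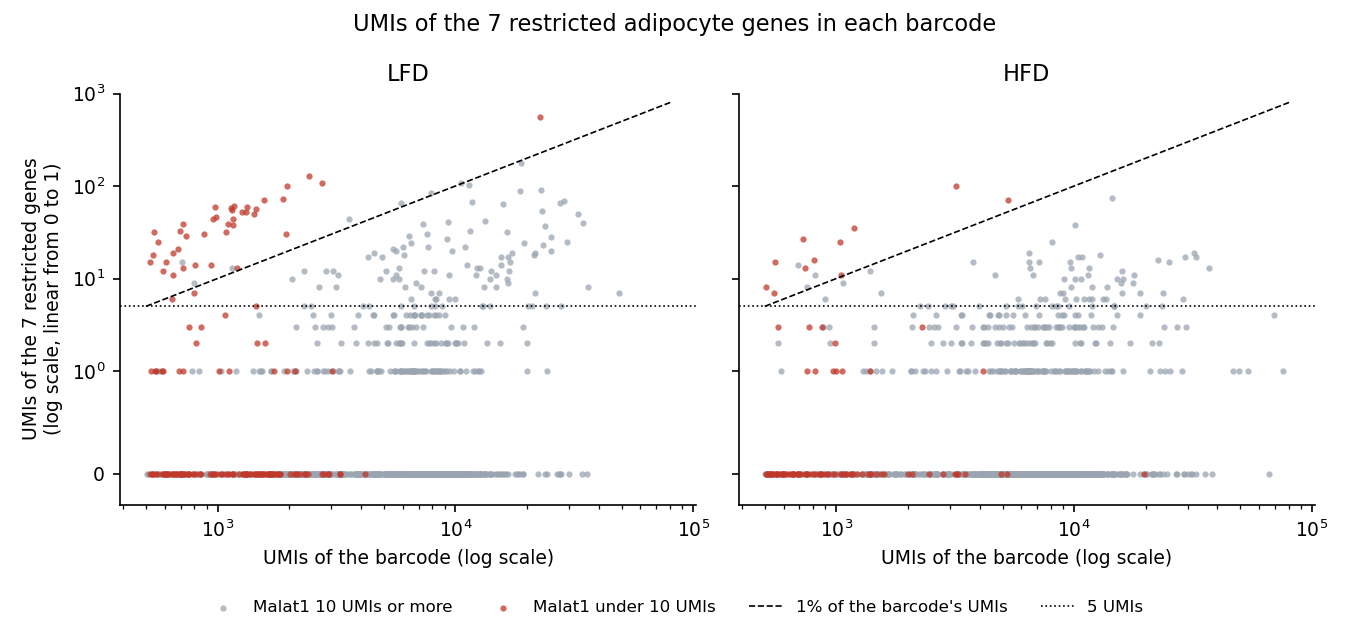
Each point is 1 barcode, placed by its UMIs (x axis, log scale) and its UMIs of the 7 restricted genes (y axis, log scale above 1 and linear from 0 to 1), for LFD (left) and HFD (right). Red points have fewer than 10 UMIs of Malat1. The adipocyte-rich barcodes lie above the dashed line (1% of UMIs) and the dotted line (5 UMIs), 46 in LFD and 14 in HFD, and most of them are red and shallow.

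All barcodes were also grouped by Malat1, without use of the restricted genes. The group lowest in Malat1 was also the shallowest, with a median of 1114 UMIs in LFD and 851 UMIs in HFD. LFD barcodes with 0 to 9 UMIs of Malat1 had 9835 CPM of the restricted set (9430 to 10253), against 177 CPM at 10 to 49 UMIs, 294 CPM from 50 to under 200 and 521 CPM at 200 or more. In HFD the lowest group had 2563 CPM (2301 to 2847), against 150, 122 and 198.5 CPM. Adipoq alone followed the same order in its highest group, with 661 CPM in LFD and 287 CPM in HFD below 10 UMIs of Malat1 and no more than 34.3 and 11.9 CPM in the others. In HFD 27 of the 39 Adipoq UMIs of this group lay in 1 barcode with 8 UMIs of Malat1, and without it the level was 92.0 CPM. By depth, barcodes under 1000 UMIs had 6850 CPM of the restricted set in LFD and 2009 CPM in HFD, and those from 3000 to under 10000 UMIs had 256 and 159 CPM. The level did not fall steadily with depth, since LFD barcodes of at least 10000 UMIs had 758 CPM and held 43.5% of the restricted UMIs, while those of HFD had 157 CPM.

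Barcodes with fewer than 200 genes contributed little. There were 56 in LFD and 27 in HFD, and haemoglobin genes made up 86.7% and 73.9% of their UMIs. They held 6 and 19 UMIs of the 10 genes, and the median of Malat1 in them was 0 in both libraries.

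The single richest barcode of LFD had 22702 UMIs, 0 of Malat1 and 46.1% mitochondrial UMIs, and it held 1050 UMIs of the 10 genes. Among these were 253 UMIs of Scd1, 190 of Car3, 177 of Retn, 163 of Cfd and 55 of Adipoq. The richest HFD barcode had 5290 UMIs, 8 of Malat1 and 64.7% mitochondrial UMIs, and it held 255 UMIs of the 10 genes. Its make-up differed, since 167 of these were Cfd and 0 were Thrsp. That barcode alone held 65.5% of the 255 Cfd UMIs of the HFD library.

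Other genes of adipocytes were also high in the adipocyte-rich barcodes. Of 44 such genes fixed as a list, 34 had at least 50 UMIs in LFD, and 32 of these were at least 2-fold higher in the rich barcodes than in all others, with an interval that left out 1. Some, such as Cyp2e1 with 48 of its 92 UMIs in rich barcodes, reached 50 UMIs only through those barcodes. The counts of list genes are therefore a description. Of all 9881 genes 6.32% met the same rule, as did Cfd, Rbp4 and Scd1, the members that did not choose the barcodes. In HFD 18 of 27 list genes met it, as did these 3 members, against 3% of 9845 genes. Because the 7 restricted genes chose the barcodes, nothing is read from their own counts. Fasn (fatty acid synthase) had 2208 CPM in the rich LFD barcodes and 26.3 CPM in fibroblast barcodes. Cdo1 (cysteine dioxygenase) had 1590 and 4.75 CPM. Fabp4, a fatty acid carrier shared by adipocytes and capillary endothelium, had 43148 CPM in the rich barcodes and 41136 CPM in endothelial barcodes of LFD. Gpihbp1, the capillary anchor of lipoprotein lipase, had 1078 CPM in the rich LFD barcodes and 3107 CPM in endothelial barcodes. All but 1 of its 103 UMIs in rich barcodes lay in the 4 that passed the endothelial gate, and the 14 rich HFD barcodes held 0.

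The 10 genes whose UMIs lay most in adipocyte-rich barcodes were ranked, with the 10 members and mitochondrial genes left out, among 11294 genes with at least 20 UMIs in each library, by the lower of the shares in LFD and HFD. They were Apoc1, Cyp2e1, Cdo1, Plin4, Dgat2, Pcx, Gpd1, Mrap, Orm1 and Ces1d, of which 8 were on the list of adipocyte genes. Apoc1, an apolipoprotein, had 32.0% of its UMIs there in LFD and 39.1% in HFD. Plin4, another droplet coat protein, had 49.5% and 28.6%, and Dgat2, which makes triglyceride, had 38.1% and 28.0%. The median gene had 0.728% of its UMIs in these barcodes in LFD and 0 in HFD.

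Adipocyte UMIs were spread very unevenly over the captured cell classes, a few of whose barcodes were themselves adipocyte-rich. In LFD the restricted set had 1651 CPM in endothelial barcodes (1582 to 1722), 148 CPM in macrophage barcodes (129 to 169), 17.1 CPM in fibroblast barcodes (12.8 to 22.3) and 0 UMIs in T cell barcodes, where 3 counts would be 9.15 CPM. Without the 4 adipocyte-rich barcodes among them the LFD endothelial level was 1474 CPM. In HFD the endothelial level was 607 CPM (568 to 649), the macrophage level 80.6 CPM (70.6 to 91.7) and the fibroblast level 5.29 CPM (2.82 to 9.05), and T cell barcodes held 1 UMI, of Cidec. The endothelial, macrophage and fibroblast intervals did not overlap in either library. The HFD T cell barcodes had 46943 UMIs in all, so that 1 UMI was 21.3 CPM (0.539 to 119) and 3 counts would be 63.9 CPM.

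Shares of barcodes with a restricted UMI followed the same order. In LFD these were 131 of 149 endothelial barcodes (87.9%, 81.6 to 92.7%), 108 of 229 macrophage barcodes (47.2%, 40.6 to 53.8%), 14 of 377 fibroblast barcodes (3.71%, 2.04 to 6.15%) and 0 of 72 T cell barcodes, which allows a share of up to 4.17% when taken as 3 counts of the total. Median depths were 6486, 6313, 8500 and 2764.5 UMIs. In HFD the shares were 163 of 207 (78.7%), 98 of 320 (30.6%), 11 of 293 (3.75%) and 1 of 21 (4.76%), at 5804, 6897, 7908 and 1781 UMIs. Brought to 1000 UMIs a barcode, the expected LFD shares were 61.5% endothelial, 14.0% macrophage, 0.724% fibroblast and 0% T cell, after 7, 5, 5 and 3 shallower barcodes were left out. The HFD shares were 39.8%, 7.18%, 0.514% and 2.92%, with 20, 1, 2 and 1 left out. T cells should lack these transcripts, and in LFD the endothelial and macrophage shares were above theirs beyond counting error. In HFD the endothelial share was above that of T cells, whereas the 21 T cell barcodes give an interval of 0.120 to 23.8%, too wide to set against macrophages at 1000 UMIs.

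Endothelial barcodes held the restricted UMIs broadly. Their median was 6 UMIs a barcode in LFD, with quartiles of 2 and 14, and 3 in HFD, with quartiles of 1 and 5. The highest barcode held 178 of 2159 UMIs in LFD and 75 of 885 in HFD. When endothelial barcodes were split at their median depth, the LFD level was 1932 CPM (1764 to 2113) in the shallow part and 1585 CPM (1510 to 1662) in the deep part, and the HFD level was 723 and 579 CPM. The endothelial gene Gpihbp1 was likewise somewhat higher in the shallow part, at 3581 against 2996 CPM in LFD. Restricted UMIs per barcode were 6.44 in the shallow and 22.6 in the deep part of LFD, and 1.99 and 6.58 in HFD.

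In LFD fibroblasts the restricted set came mostly from 1 barcode. It held 39 of the 54 UMIs, 29 of them Car3, at a depth of 7342 UMIs and with 284 UMIs of Malat1. Without it the LFD level was 4.76 CPM in place of 17.1 CPM. In HFD the 13 UMIs were spread over 11 fibroblast barcodes, with no more than 3 in 1 barcode. The 15 LFD barcodes of several gates had 844 CPM of the restricted set (740 to 960), and the 27 in HFD had 124 CPM. Had those that passed the fibroblast gate been kept in that class, its level would have been 56.1 CPM in LFD and 16.5 CPM in HFD.

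**Figure D2:**
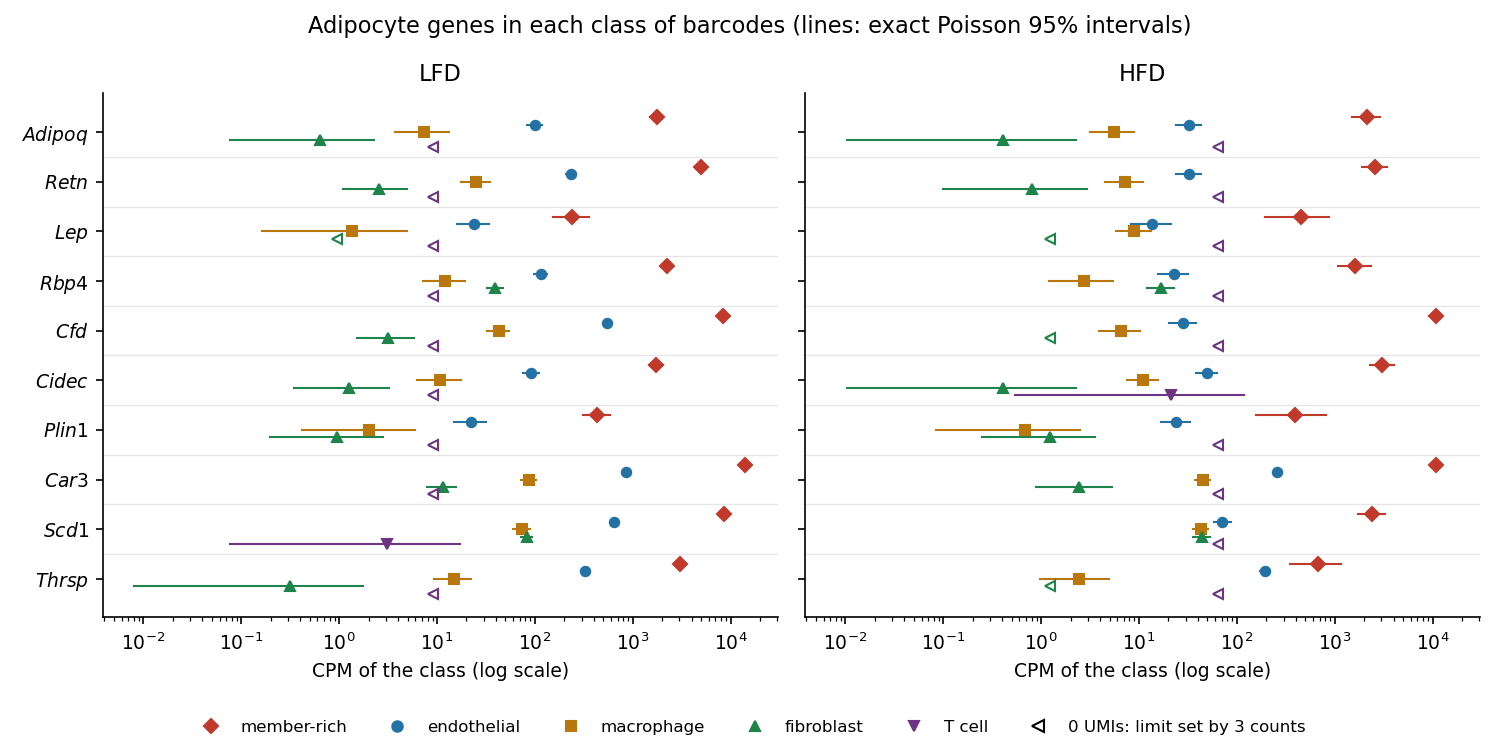
CPM of each gene (x axis, log scale) in adipocyte-rich, endothelial, macrophage, fibroblast and T cell barcodes of LFD (left) and HFD (right). Lines are exact Poisson 95% intervals, and open triangles mark classes with 0 UMIs at the level 3 counts would give. Adipocyte-rich barcodes are highest for every gene, and the fibroblast point lies above the macrophage point only for Rbp4, Scd1 and, in HFD, Plin1.

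Among the secreted factors, Adipoq was scarce in fibroblasts, and the 0 UMIs in T cells allow levels above that of macrophages. It had 169 of its 316 LFD UMIs in adipocyte-rich barcodes, 130 in endothelial barcodes, of which 23 are counted in both, 11 in macrophages, 2 in fibroblasts and 0 in T cells. In HFD it had 105 UMIs, with 38 in rich barcodes, 47 in endothelial, 16 in macrophage, 1 in fibroblast and 0 in T cell barcodes. Retn had 304 UMIs in endothelial and 8 in fibroblast barcodes of LFD, and 47 and 2 in HFD. Lep, the rarest of the hormones, had 31 endothelial, 2 macrophage and 0 fibroblast UMIs in LFD and 20, 26 and 0 in HFD.

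Cfd was treated apart as a gene stromal cells can make, but fibroblasts held almost none of it. They had 10 UMIs in LFD, 9 of them in the 1 barcode named above, and 0 UMIs in HFD over 293 barcodes, where 3 counts would be 1.22 CPM. Endothelial barcodes held 717 UMIs in LFD (548 CPM). Rbp4 differed, with 124 UMIs in 60 of 377 fibroblast barcodes of LFD (39.2 CPM) and 41 in 32 of 293 in HFD (16.7 CPM). The LFD value was 4.29 times the level of 3 counts in T cell barcodes (3.57 to 5.11), which held 0 UMIs.

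Of the droplet proteins, Cidec resembled Adipoq in where it was found. Cidec had 120 endothelial, 16 macrophage and 4 fibroblast UMIs in LFD and 72, 32 and 1 in HFD. Plin1 had 29, 3 and 3 in LFD and 35, 2 and 3 in HFD, which leaves macrophages and fibroblasts indistinguishable for this gene. Car3, the gene with most UMIs in both libraries, had 1121 endothelial, 128 macrophage and 36 fibroblast UMIs in LFD and 378, 130 and 6 in HFD.

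Of the lipogenic genes, Scd1 was the only member seen in every class of LFD. It had 82.3 CPM in fibroblasts (72.6 to 92.9), found in 151 of 377 barcodes, and 73.7 CPM in macrophages (60.5 to 88.9). The fibroblast level was 27.0 times that of T cells (4.80 to 1070), which held 1 UMI. Among barcodes within the study's limits on genes and mitochondrial UMIs, T cells held 0 UMIs and fibroblasts 17, a level 1.44 times that of 3 counts in T cells (0.837 to 2.30), so no difference was detectable there. It also had 17 UMIs in 20 ungated B cell barcodes (at least 3 UMIs of Cd79a and Cd79b) of LFD, which held 0 UMIs of the other 9 genes. In HFD 76 of its 124 macrophage UMIs lay in 1 barcode of 36852 UMIs, and without it the level was 16.8 CPM. Thrsp leaned most to endothelial barcodes. They held 424 of its 758 UMIs in LFD and 286 of 332 in HFD, and a Thrsp UMI was found in 107 of 149 and 129 of 207 endothelial barcodes. Fibroblasts held 1 UMI in LFD and 0 in HFD.

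Set against fibroblasts, the endothelial level was higher in LFD by a ratio of 157 for Adipoq (42.6 to 1311), 173 for Cfd (93.7 to 363) and 75.3 for Car3 (54.0 to 108). The 1 fibroblast barcode named above held much of the fibroblast UMIs of these genes, and without it the ratios were 313 for Adipoq (55.3 to 12475), 1729 for Cfd (309 to 68378) and 386 for Car3 (187 to 963). The ratio was 7.88 for Scd1 (6.85 to 9.09) and 2.92 for Rbp4 (2.29 to 3.74). In HFD it was 106 for Car3 (48.4 to 291), 1.62 for Scd1 (1.23 to 2.15) and 1.36 for Rbp4 (0.832 to 2.20), the last not a detectable difference. Macrophages over fibroblasts gave 13.5 for Cfd (6.85 to 29.4) and 7.59 for Car3 (5.21 to 11.3) in LFD and 18.4 for Car3 in HFD (8.21 to 50.9). Without that LFD fibroblast barcode the LFD ratios were 134 for Cfd (23.2 to 5384) and 39.0 for Car3 (18.4 to 98.8). Of all genes with at least 50 UMIs over both classes, 15.8% of 8254 in LFD and 17.9% of 7759 in HFD were at least 2-fold higher in endothelial than in fibroblast barcodes with an interval that left out 1, and for macrophages 15.8% of 8257 and 17.3% of 8418 were. The number of members past this rule is not given, because most of those past it reached 50 UMIs only through the class in which they were high.

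Markers of the captured cells were also found outside their own class. The 5 fibroblast markers reached a median of 3.92% of their own class's level in endothelial barcodes of LFD (0.138 to 6.96% over the genes) and 0.183% in macrophages. The 5 endothelial markers reached a median of 0.169% in fibroblasts and 0.169% in macrophages, and the 5 macrophage markers 0.0784% in endothelial barcodes, 0.626% in fibroblasts and 11.8% in T cells. The endothelial value of the fibroblast markers came from the collagens Col1a1 (4.42%), Col1a2 (3.92%) and Col3a1 (6.96%). Lum and Pdgfra had 1 UMI each in endothelial barcodes of LFD (0.138% and 0.208%), against 2 and 1 in macrophages (0.243% and 0.183%). In HFD the fibroblast markers reached a median of 3.21% in endothelial barcodes, with Lum at 0.167% and Pdgfra at 0.240%. The part of RNA from other cells in these endothelial values was not tested.

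Between the diets, adipocyte transcripts were scarcer in HFD. The 10 genes together had 1250 CPM in LFD (1224 to 1276) and 283 CPM in HFD (272 to 295), a ratio of 0.226 (0.216 to 0.237). Over the libraries 8 of 10 members were at least 2-fold lower in HFD with an interval that left out 1, against 4.38% of 11382 genes, and 0 were higher by that rule, against 2.35%. The median ratio was 0.269 for the members and 0.952 for all genes. The number of mice is unknown and there is 1 library per diet, so the effect of the diet and that of the preparation cannot be told apart. Adipocyte-rich barcodes, of which there were 46 and 14, contributed to this difference, and without them the ratio was 0.313 (0.297 to 0.331). Without them 6 of the 10 members were lower by the rule, since Cidec (0.708) and Thrsp (0.591) no longer reached 2-fold. Without the richest barcode of each library 7 were, with Cidec at 0.538.

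By role, 4 of the 5 secreted factors were lower in HFD and Lep was not. Retn went from 798 UMIs in LFD to 121 in HFD, a CPM ratio of 0.133 (0.109 to 0.161). Its ratio was 0.0583 (0.0303 to 0.103) within the study's limits on genes and mitochondrial UMIs and 0.205 (0.157 to 0.264) without adipocyte-rich barcodes. Cfd went from 1603 to 255, a ratio of 0.139 (0.121 to 0.159), and to 0.0533 when the richest barcode of each library was left out. Adipoq went from 316 to 105, a ratio of 0.291 (0.231 to 0.363), and Rbp4 from 512 to 119, a ratio of 0.203 (0.165 to 0.249). Lep had 59 UMIs in LFD and 61 in HFD, a ratio of 0.904 (0.622 to 1.32), so no difference was detectable at this depth.

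Among the other members, Scd1 went from 2108 to 419 UMIs, a ratio of 0.174 (0.156 to 0.193), Car3 from 2652 to 748, a ratio of 0.247 (0.227 to 0.268), and Thrsp from 758 to 332, a ratio of 0.383 (0.336 to 0.436). Cidec went from 309 to 172, a ratio of 0.487 (0.402 to 0.588). Plin1 went from 79 to 49, a ratio of 0.542 (0.372 to 0.784), which did not reach the 2-fold rule, and without the adipocyte-rich barcodes its ratio was 0.956 (0.602 to 1.52). Of the list of other adipocyte genes 34 of 44 had enough UMIs, 11 of them were lower in HFD by the rule and 3 were higher, namely Lpl, Fabp5 and Plin2. The HFD over LFD ratios were 0.209 for Cyp2e1 and 0.158 for Cdo1. Lpl (2.10), Fabp5 (2.90) and Plin2 (3.53) are also expressed by macrophages, where Plin2 had 383 CPM in LFD and 1477 CPM in HFD. Other classes differed too, with Fabp5 at 1270 and 2300 CPM in endothelial barcodes and Lpl at 490 and 1169 CPM in fibroblasts. Lpl in endothelial barcodes (522 and 521 CPM) and Fabp5 in fibroblasts (73.7 and 72.4 CPM) hardly changed. The source of the rise was not tested.

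**Figure D3:**
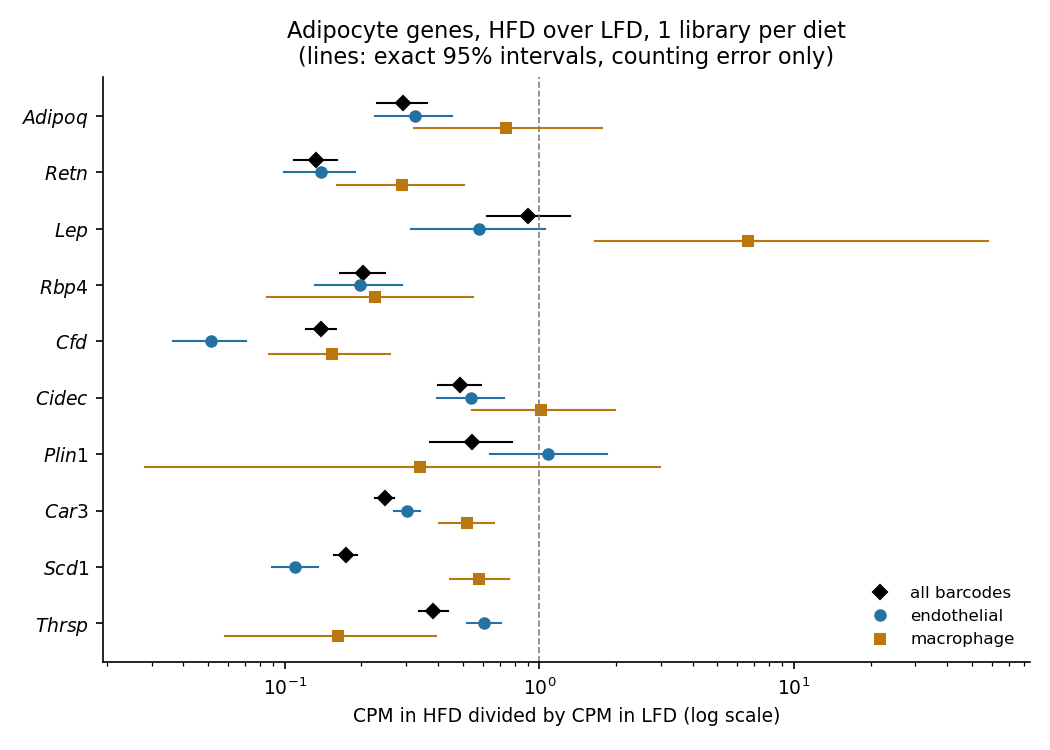
CPM of each gene in HFD divided by that in LFD (x axis, log scale) over all barcodes (black diamonds), endothelial barcodes (blue circles) and macrophage barcodes (orange squares). Lines are exact 95% intervals for counting error with 1 library per diet, and the dashed line marks equal levels. Most points lie left of 1, Cfd in endothelial barcodes is lowest at 0.0513, and Lep in macrophages is the highest at 6.63.

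Within endothelial barcodes and macrophages the restricted set was again lower in HFD. The ratio was 0.368 in endothelial barcodes (0.340 to 0.398) and 0.545 in macrophages (0.451 to 0.658). In fibroblasts it was 0.310 (0.155 to 0.575) on 54 and 13 UMIs, but this rested on the 1 LFD barcode with 39 UMIs. Without the richest barcode of the class in each library the fibroblast levels were 4.76 CPM in LFD and 4.91 CPM in HFD. In the endothelial class Cfd had 548 CPM in LFD and 28.1 CPM in HFD, and Scd1 649 and 71.4 CPM, while Gpihbp1 had 3107 and 3118 CPM and Fabp4 41136 and 47098 CPM. Without the 1 endothelial barcode that held 276 Scd1 UMIs, the LFD level of Scd1 was 444 CPM. Plin1 in endothelial barcodes did not differ detectably, with a ratio of 1.08 (0.643 to 1.84). In macrophages Retn, Car3 and Thrsp had intervals below 1. Those of Adipoq (0.742, 0.323 to 1.77), Cidec (1.02, 0.5435 to 1.99) and Plin1 (0.340, 0.0284 to 2.97) included 1. Lep in macrophages went from 2 to 26 UMIs, a ratio of 6.63 (1.66 to 57.6), but 12 of the 26 lay in the same barcode of 36852 UMIs that held 76 UMIs of Scd1. Without it 14 UMIs remained, or 4.89 CPM (2.67 to 8.20) against 1.35 CPM (0.164 to 4.88) in LFD, and these intervals overlap.

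In adipocyte-rich barcodes, where the restricted genes set membership, the values are given only as a description. There the restricted set had 26240 CPM in LFD and 20149 CPM in HFD. Adipoq had 1768 and 2127 CPM, Cidec 1737 and 3078 CPM and Cfd 8391 and 10746 CPM. Without the richest barcode of each library, which in HFD held 27 of the 38 Adipoq and 167 of the 192 Cfd UMIs, Adipoq had 1564 CPM (1290 to 1879) and 875 CPM (437 to 1565), intervals that overlap, and Cfd had 8768 CPM (8102 to 9475) and 1988 CPM (1286 to 2934), which was lower in HFD. Scd1 had 8611 and 2407 CPM and Thrsp 3034 and 672 CPM. Scd1 was not used to choose these barcodes, and its ratio there was 0.279 (0.201 to 0.380), while the ratio of Cfd, also not used, was 1.28 (1.09 to 1.50) and rested on that 1 HFD barcode.

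The make-up of the adipocyte UMIs differed between the diets as well as their amount. As a share of the UMIs of the 10 genes, which is no measure of level between genes, Cfd went from 17.4% in LFD (16.7 to 18.2%) to 10.7% in HFD (9.50 to 12.0%), or to 4.14% without the HFD barcode that held 167 Cfd UMIs, and Scd1 from 22.9% to 17.6%. Thrsp went from 8.24% to 13.9%, Cidec from 3.36% to 7.22% and Lep from 0.642% to 2.56%. Car3 made up 28.8% and 31.4%. In LFD the make-up of endothelial and rich barcodes was close for Cfd (18.5% and 18.5%) and Adipoq (3.36% and 3.89%), and differed for Thrsp (10.9%, 9.98 to 12.0%, and 6.67%, 5.95 to 7.46%). The groups share 4 barcodes in LFD, with 418 of these UMIs, and 1 in HFD, so they are not independent. Rich LFD barcodes that passed no gate had 18.4% Cfd, 3.72% Adipoq and 6.75% Thrsp. Thrsp differed likewise without the richest barcode of each group (12.6% and 6.10%). Retn (7.85% and 11.1%) and Scd1 (21.9% and 18.9%) had intervals apart with all barcodes but not without these (8.08% and 9.22% for Retn, 17.3% and 17.3% for Scd1), whereas those of Car3 overlapped with all (28.9% and 30.8%) and not without them (31.1% and 34.8%). In HFD Thrsp made up 26.9% of endothelial and 1.92% of rich UMIs, and 28.8% and 3.25% without the richest barcodes. Cfd (3.86% and 30.8%) and Plin1 (3.29% and 1.12%) also had intervals apart in HFD, but not without these barcodes (4.18% and 6.78% for Cfd, 3.26% and 0.813% for Plin1). Car3 (35.6% and 31.1%) and Cidec (6.77% and 8.81%) had intervals apart in HFD only without them, at 34.5% and 50.4% for Car3 and 5.50% and 14.1% for Cidec. In fibroblasts Scd1 and Rbp4 made up 58.0% and 27.7% in LFD and 66.7% and 25.3% in HFD.

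**Figure D4:**
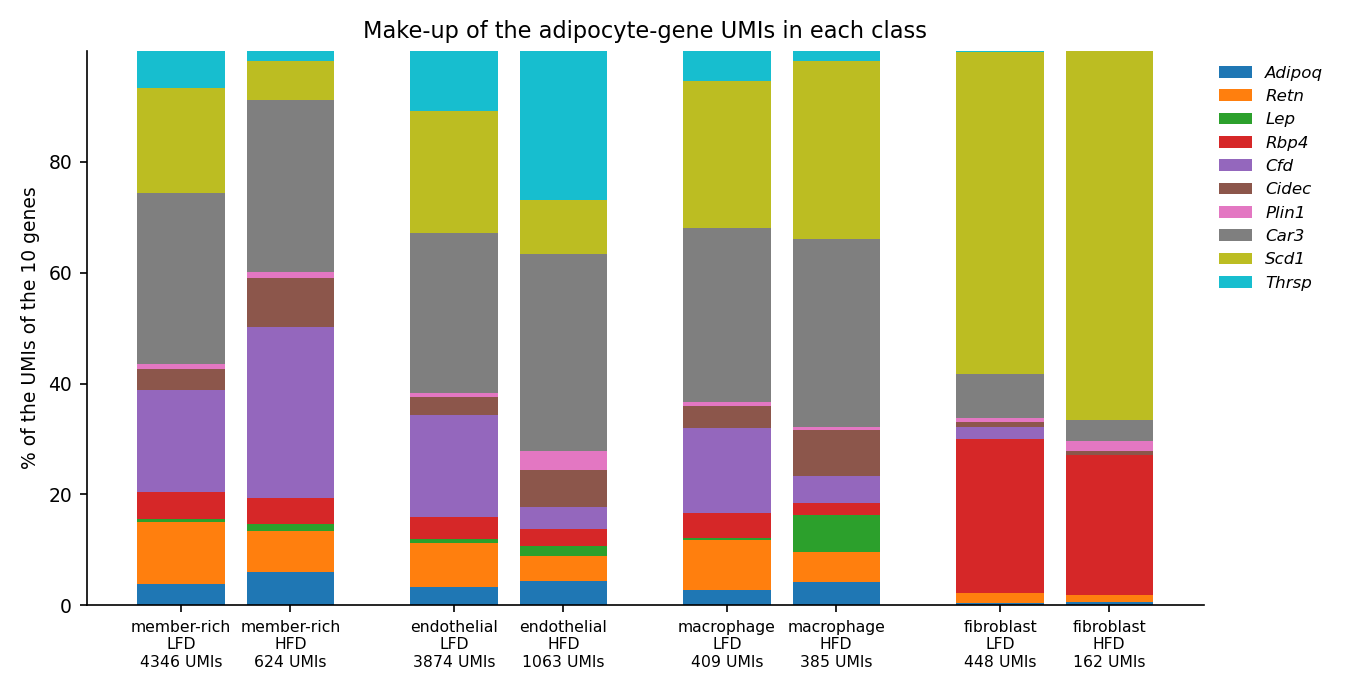
Stacked bars give the share of each gene (y axis, % of the UMIs of the 10 genes) in adipocyte-rich, endothelial, macrophage and fibroblast barcodes of each diet, with the UMIs behind each bar under it. In LFD Car3 has the largest share of the rich, endothelial and macrophage bars (30.8%, 28.9% and 31.3%), whereas fibroblast bars consist mostly of Scd1 and Rbp4, and Thrsp reaches 26.9% of the HFD endothelial bar.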

How the data were processed

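The 10 genes, the gates and the lists were chosen with earlier results of these data known. The deposited values are raw UMI counts, for which the authors ran Cell Ranger against mm10 (the table headers name release 3.0.2, the methods another). The tables reach beyond the limits on genes and mitochondrial UMIs in the methods, and all barcodes were used. No authors' cell annotation was used here.

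UMIs were summed over the barcodes of a class and divided by their total (CPM). Levels have exact Poisson intervals, ratios exact conditional binomial intervals and shares Clopper-Pearson intervals, all at 95% and for counting error only. A level of 0 is bounded by 3 counts over the class. Shares at 1000 UMIs are hypergeometric expectations. Genes with at least 50 UMIs over the compared groups were called at a 2-fold ratio whose interval left out 1. Named genes are the 10 members, a list of 44 adipocyte genes and the 10 most alike by share in adipocyte-rich barcodes. Doublets were not called, and barcodes of several gates were kept apart. Levels are not per length and were not ranked between genes. GENCODE M21 placed 27645 of the 27998 listed identifiers. The ratio method was tested on simulated data. The work used Python 3.11.15, numpy 2.4.6, scipy 1.17.1 and matplotlib 3.10.9.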

Additional observations from a re-analysis of the deposited data

How the results depend on the processing

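No paired analysis was possible because there is 1 library per diet and no replicate to leave out, so the values cannot carry an error between mice, and in HFD T cells 3 counts amount to 63.9 CPM. The cause of the moves below was not tested. Every alternative kept the 10 genes together lower in HFD, and 8 of the 10 genes had an interval below 1 in all 6 settings. Plin1 ranged from 0.0986 to 0.956, the latter without adipocyte-rich barcodes and with an interval that included 1, and Lep from 0.844 to 1.27. The members at least 2-fold lower numbered 6 to 9 of 10 over the settings. Of the 20 alternatives for the main ratios 16 stayed inside the interval of the reported value, and of 92 for the main shares and levels 54 did. Some alternatives could not move a value, such as leaving out adipocyte-rich barcodes in classes that held none. Several values of fibroblasts over T cells are set against 3 counts and are not ratios. These counts are therefore no measure of stability. No ratio between fibroblasts and T cells could be given for Cfd, or for Rbp4 and Scd1 in HFD, because the fibroblast level lay under that of 3 counts in T cells, which held 0 UMIs.

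Within the study's limits on genes and mitochondrial UMIs, the diet ratio of the 10 genes was 0.178, adipocyte-rich barcodes held 69.9% (LFD) and 47.2% (HFD) of restricted UMIs, fibroblasts had 8.16 CPM in LFD, macrophages 125 and 61.6 CPM, and Scd1 in fibroblasts was 1.44 times the level of 3 counts in T cells, which held 0 UMIs. Without adipocyte-rich barcodes the diet ratio was 0.313 and the LFD endothelial level 1474 CPM. With mitochondrial UMIs out of the denominator the LFD rich share was 54.2%. Without the richest barcode the rich shares were 44.2% and 19.1%, endothelial levels 1537 and 561 CPM, the LFD fibroblast level 4.76 CPM and the HFD T cell level 0. At 0.5% in place of 1% the rich shares were 58.7% and 29.1%, and at 5% they were 9.62% and 0%. With barcodes of several gates kept, fibroblasts had 56.1 and 16.5 CPM, endothelial barcodes 1549 and 525 CPM and LFD macrophages 213 CPM. With gates doubled Rbp4 in LFD fibroblasts was 3.16 times the level of 3 counts in T cells. By the mean of the barcodes' own CPM, fibroblasts had 23.3 CPM in LFD and endothelial barcodes 1739 and 749 CPM. With all 10 genes summed, fibroblasts had 142 and 65.9 CPM, endothelial barcodes 2963 and 730 CPM and macrophages 276 and 133 CPM. With Adipoq alone, fibroblasts had 0.633 and 0.407 CPM, endothelial barcodes 99.4 and 32.3 CPM, macrophages 7.43 and 5.51 CPM and HFD T cells 0 CPM. Leaving out the richest barcode in the make-up of endothelial and adipocyte-rich barcodes, in the levels of rich and low-Malat1 barcodes and in the ratios of endothelial barcodes and macrophages to fibroblasts was chosen after seeing the data.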
